A study of Mus musculus with 6 samples.

Results

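The 10 genes described here mark dendritic cells and their subsets: *Itgax*, *Flt3* and *Zbtb46* are shared by several subsets, *Xcr1*, *Clec9a*, *Batf3* and *Irf8* belong to type 1 conventional dendritic cells (cDC1), *Cd209a* to type 2 (cDC2) and monocyte-derived cells, *Siglech* to plasmacytoid dendritic cells (pDC), and *Ccr7* to mature, migrating cells. They were listed by name, with no threshold on their values, although earlier results of these data were known when the list was made, and all 10 were found among the 20076 genes of the deposited table. All 10 also passed the filter on low values, which left 19667 genes to be tested. RNA was sequenced in bulk, after poly(A) enrichment, from primary ovarian tumors of C57BL/6 mice, 3 of them wild-type (WT) and 3 lacking *Tgm2*. All 6 mice had received cells of the mouse ovarian cancer line ID8 Trp53-/- Brca1-/- under the bursa of the ovaries, and the tumors were collected 6 weeks later. The WT and the knockout mice were both bred in-house, and mice were between 6 and 10 weeks old when they entered the study. Whether litters or cages were shared is not given in the sources used here, so the p-values measure only the spread between these tumors. *Tgm2* is missing from the host alone, while the implanted cancer cells, which are the same 1 line in both groups, carry the gene. The labels give the cell type as cancer cells, but the tumors were not sorted: *Ptprc*, which encodes the pan-leukocyte antigen CD45, was present in every tumor with 1583 to 3173 normalized counts.

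*Tgm2* itself (chromosome 2 of GRCm38, 158116402 to 158146436, minus strand), which encodes transglutaminase 2, was measured first as a check of the labels. The WT tumors held 14978, 12155 and 13180 normalized counts of it and the knockout tumors 5853, 6071 and 8157, so that every knockout tumor was below every WT tumor. The means were 13437 ± 1429 and 6694 ± 1272, where ± gives the SD of 3 tumors per group here and throughout. The log2 fold change, knockout minus WT, was -1.02 with a standard error (SE) of 0.22, and it did not pass adjustment (limma adjusted p = 0.391). Its exons share 370 bases with those of *Rprd1b* on the opposite strand, and whether the reads kept strand is not given in the sources used here. The values are normalized counts: reads estimated per gene and divided by 1 factor per tumor for sequencing depth. The sums over all genes were 34801694, 35325875 and 33916288 for WT tumors 1 to 3, and 32316613, 35827822 and 37717165 for knockout tumors 1 to 3. In each tumor 1 read was worth between 0.944 and 1.08 normalized counts. A value is therefore close to the number of reads assigned to the gene. One library stood apart in epithelial genes. WT tumor 3 held 8047 normalized counts of *Epcam*, an epithelial adhesion gene, while the other 5 tumors held 90.5 to 1307. *Cdh1*, which encodes E-cadherin, was at 6588 there and at no more than 1876 in any other tumor. Results were therefore also computed without WT tumor 3. Knockout tumor 3 had the largest sum and the fewest genes above 0, 18596 beside 19099 to 19603 in the other tumors. Each of the other tumors was left out in turn as well.

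Dendritic cells take up antigen in tissues and present it to T cells in draining lymph nodes. The cDC1 subset, which needs the transcription factors IRF8 and BATF3, presents antigen from dead cells to CD8+ T cells, cDC2 mainly prime CD4+ T cells, and pDC release type I interferon. The receptor tyrosine kinase FLT3 and its ligand sustain the production of these subsets from bone marrow progenitors. In tumors, dendritic cells are a small part of the leukocytes, and several of their markers are also expressed by macrophages and other cells.

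Of the 10 genes, 4 were higher in all 3 knockout tumors than in any WT tumor: *Clec9a*, *Xcr1*, *Cd209a* and *Flt3*, with means 2.86- to 4.47-fold those in WT tumors. The other 6 genes, *Irf8*, *Itgax*, *Batf3*, *Ccr7*, *Siglech* and *Zbtb46*, overlapped between the groups. No member passed the limits of an adjusted p of 0.05 and a log2 fold change of 1 (0 of 10), limits that 20 genes of the table passed upward (0.102% of all genes tested) and 0 downward. At an unadjusted p under 0.05 in limma the same 4 members were higher, against 3.40% of all genes, and 0 were lower, against 2.38%. Over all genes, the groups were separate with the knockout tumors higher in 5.18%, and with the knockout tumors lower in 5.33%, which 0 members shared. The median log2 fold change of the 10 genes was 0.61, beside -0.03 over all genes tested. With 3 tumors against 3, an exact permutation test of a single gene cannot go below p = 0.1, the value that each of the 4 genes reached. In bulk RNA, more or fewer cells of a type and more or less RNA per cell cannot be told apart.

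*Clec9a* (chromosome 6, 129408862 to 129424763, plus strand) encodes a receptor of cDC1 that binds actin filaments exposed on dead cells. WT tumors 1 to 3 held 51.1, 86.8 and 73.5 normalized counts, and knockout tumors 1 to 3 held 301.6, 243.7 and 399.4. The lowest knockout tumor was far above the highest WT tumor, and within each group the highest tumor was 1.70-fold (WT) and 1.64-fold (knockout) the lowest. The mean was 70.5 ± 18.0 in WT and 314.9 ± 78.7 in knockout tumors, a log2 fold change of 2.15 (SE 0.40, 95% interval 1.24 to 3.06, limma adjusted p = 0.242). By p-value *Clec9a* stood 45th of 19667 genes. Its annotated exons share 184 bases with those of *Clec1b* on the same strand. *Clec1b* had a mean of 13.5 normalized counts over the 6 tumors.

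*Xcr1* (chromosome 9, 123852315 to 123862029, minus strand) encodes the receptor for the chemokine XCL1, carried in the mouse almost solely by cDC1. Its values were 68.2, 60.5 and 27.3 in the WT tumors, against 95.8, 165.8 and 340.7 in the knockout tumors. The groups did not overlap, but the knockout tumors differed among themselves by 3.56-fold, and knockout tumor 1 was closer to the WT tumors than to knockout tumor 3. The mean was 52.0 ± 21.7 in WT and 200.8 ± 126 in knockout tumors, a log2 fold change of 1.84 (SE 0.61, 95% interval 0.45 to 3.22, limma adjusted p = 0.736). Without knockout tumor 3 the log2 fold change was 1.36 and no longer reached an unadjusted p of 0.05. The ratio of *Clec9a* to *Xcr1*, both genes of cDC1, was 0.750, 1.44 and 2.69 in the WT tumors, against 3.15, 1.47 and 1.17 in the knockout tumors. These ratios overlapped between the groups, so the 2 genes did not keep 1 proportion from tumor to tumor.

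**Figure D1:**
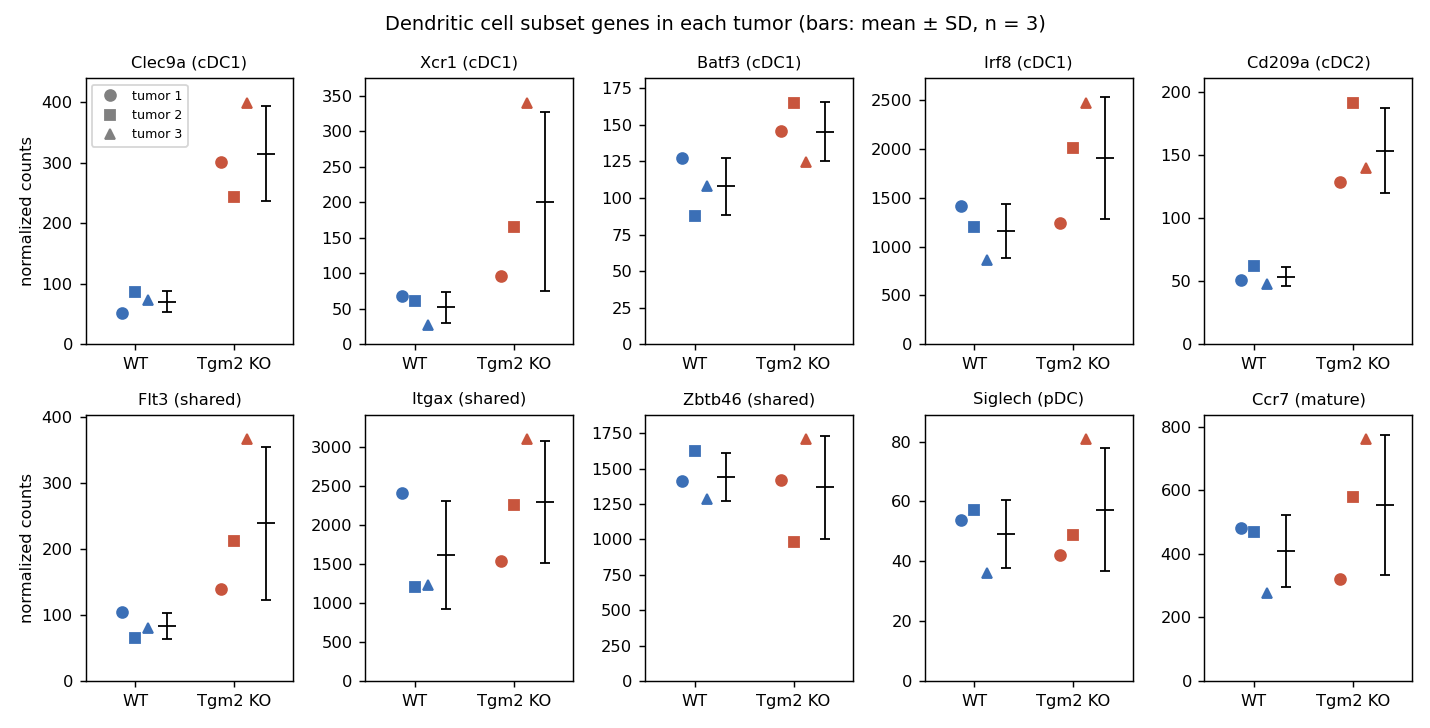
Normalized counts (vertical axes, from 0) of the 10 dendritic cell genes in each of the 6 tumors, with WT tumors in blue, *Tgm2* knockout tumors in red and the marker shape giving the tumor number; the bars beside the points are the mean ± SD of 3 tumors. *Clec9a*, *Xcr1*, *Cd209a* and *Flt3* are separate between the groups, while the other 6 genes overlap.

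*Cd209a* (chromosome 8, 3743397 to 3748984, minus strand), a C-type lectin of cDC2 and of monocyte-derived dendritic cells, was at 51.0, 62.2 and 48.0 normalized counts in the WT tumors. In the knockout tumors it was at 128.6, 191.9 and 140.1, so the lowest knockout tumor was again above the highest WT tumor. The mean was 53.7 ± 7.49 in WT and 153.5 ± 33.7 in knockout tumors, with a log2 fold change of 1.49 (SE 0.42, 95% interval 0.52 to 2.45, limma adjusted p = 0.649). *Cd209a* has close paralogs on the same chromosome, and how reads were divided among them by the quantification is uncertain.

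*Flt3* (chromosome 5, 147330741 to 147400489, minus strand), the growth factor receptor of dendritic cells and their progenitors, was at 104.2, 64.5 and 80.7 normalized counts in the WT tumors, compared with 139.6, 211.4 and 366.1 in the knockout tumors. Knockout tumor 3 again held the highest value and knockout tumor 1 the lowest of its group. The mean was 83.1 ± 20.0 in WT and 239.0 ± 116 in knockout tumors, a log2 fold change of 1.43 (SE 0.47, 95% interval 0.36 to 2.49, limma adjusted p = 0.727). Leaving out knockout tumor 3 gave 1.07 and an unadjusted p above 0.05. Leaving out WT tumor 3, the library with high *Epcam*, gave log2 fold changes of 2.19 for *Clec9a*, 1.44 for *Xcr1*, 1.42 for *Flt3* and 1.41 for *Cd209a*, all still at an unadjusted p under 0.05 in limma.

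Promoter sequences were available for 9 of the 10 genes from RefSeq (build GRCm38.p6), 10 promoters in all because *Irf8* has 2; no entry was found for *Ccr7*. The promoters of the 4 genes with separate groups are printed 5′ to 3′ because these genes were higher together, each from 250 bases before the start site to 10 bases from it, with matches to the motifs named next in capitals.
Clec9a (chr6:129408612-129408871, plus strand): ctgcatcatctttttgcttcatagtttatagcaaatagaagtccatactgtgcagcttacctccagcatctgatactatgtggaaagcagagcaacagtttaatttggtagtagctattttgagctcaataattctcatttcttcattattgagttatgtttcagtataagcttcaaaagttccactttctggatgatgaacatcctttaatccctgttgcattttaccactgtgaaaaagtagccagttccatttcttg
Xcr1 (chr9:123862020-123862279, minus strand): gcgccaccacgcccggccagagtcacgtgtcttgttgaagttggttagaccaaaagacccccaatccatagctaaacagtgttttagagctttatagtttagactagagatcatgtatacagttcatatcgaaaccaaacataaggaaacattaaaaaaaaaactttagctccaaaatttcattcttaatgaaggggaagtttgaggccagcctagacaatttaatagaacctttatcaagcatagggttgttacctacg
Cd209a (chr8:3748975-3749234, minus strand): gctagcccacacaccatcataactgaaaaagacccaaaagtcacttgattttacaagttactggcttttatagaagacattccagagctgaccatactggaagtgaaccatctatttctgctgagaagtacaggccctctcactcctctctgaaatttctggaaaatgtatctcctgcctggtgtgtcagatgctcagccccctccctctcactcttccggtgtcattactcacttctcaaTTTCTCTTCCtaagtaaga
Flt3 (chr5:147400480-147400739, minus strand): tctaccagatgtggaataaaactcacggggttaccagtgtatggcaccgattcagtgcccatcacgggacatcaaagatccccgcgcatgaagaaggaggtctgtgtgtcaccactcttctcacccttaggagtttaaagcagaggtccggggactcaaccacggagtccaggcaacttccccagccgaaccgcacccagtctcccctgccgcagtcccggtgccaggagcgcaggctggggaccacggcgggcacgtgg

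Motifs were searched on both strands over 250 bases before and 50 bases from the start site, in these promoters and in 32851 RefSeq promoters of the same length. The ETS-IRF composite element, GGAA and GAAA with any 2 bases between them, which PU.1 and IRF8 or IRF4 bind together, was found in 2.72% of all promoters. The interferon response element, GAAA repeated after any 2 bases, was in 3.44%, an AP-1 element, TGANTCA, which BATF factors with JUN can bind, in 7.81%, and a PU.1 element, GAGGAAGT, in 3.20%. Matches of the first pair of motifs can overlap each other, since the composite element ends in GAAA and the interferon response element begins with it. The PU.1 element can overlap the composite element through GGAA. Of the 4 genes, *Cd209a* alone held a match, TTTCTCTTCC (the composite element read on the other strand), beginning 9 bases before the start site. Of the other members, *Itgax* held an AP-1 match, TGAGTCA, beginning 56 bases before its start site. *Zbtb46* held another, TGACTCA, beginning 61 bases before the start site of its RefSeq entry. The *Zbtb46* window, 181424339 to 181424638 on the minus strand, lies inside the annotated gene, whose 5′ end is at 181459426. That AP-1 match is therefore not ahead of the whole annotated gene. No other match was found in these windows, which says only that those letters are not in them.

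The groups overlapped for *Irf8* and *Batf3*, both transcription factors of cDC1. *Irf8* (chromosome 8, 120736358 to 120756694, plus strand), which is needed for cDC1 and is also expressed by pDC, macrophages and B cells, was at 1412.5, 1196.5 and 862.3 normalized counts in the WT tumors, compared with 1236.4, 2012.3 and 2474.6 in the knockout tumors. Knockout tumor 1 lay within the WT range and the other knockout tumors above it. The log2 fold change was 0.69 (SE 0.30, limma adjusted p = 0.866), with a 95% interval that reached just below 0. *Batf3* (chromosome 1, 191097847 to 191108945, plus strand), its partner in cDC1, was at 127.2, 87.9 and 108.5 in the WT tumors, compared with 145.6, 165.2 and 124.8 in the knockout tumors. Only knockout tumor 3 lay inside the WT range. The mean was 108 ± 19.6 in WT and 145.2 ± 20.2 in knockout tumors, and the 95% interval of the log2 fold change of 0.43 (SE 0.38) ran from -0.44 to 1.31. Knockout tumor 3 had the highest *Clec9a*, *Xcr1* and *Irf8* of all tumors and the lowest *Batf3* of the knockout tumors.

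Of the 3 genes shared by several subsets, *Itgax* and *Zbtb46* overlapped between the groups, unlike *Flt3*. *Itgax* (chromosome 7, 128129547 to 128150657, plus strand) encodes the integrin CD11c, which tumor macrophages also carry. It was at 2404.5, 1196.0 and 1231.1 normalized counts in the WT tumors, compared with 1532.1, 2252.9 and 3093.4 in the knockout tumors. WT tumor 1 exceeded 2 of the 3 knockout tumors (log2 fold change 0.53, SE 0.35, 95% interval -0.26 to 1.32), and the log2 fold change ranged from 0.29 without knockout tumor 3 to 0.86 without WT tumor 1. *Zbtb46* (chromosome 2, 181387762 to 181459426, minus strand), a repressor found in conventional dendritic cells and also in endothelial cells, was the only member with a lower mean in knockout tumors. Its values were 1412.1, 1625.4 and 1283.7 in the WT tumors, against 1417.6, 984.2 and 1707.0 in the knockout tumors. The knockout tumors held both the highest and the lowest value of the 6, and the log2 fold change was -0.10 (SE 0.25, 95% interval -0.66 to 0.46).

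*Siglech* (chromosome 7, 55768178 to 55778925, plus strand), a sialic acid-binding lectin of pDC, was low in every tumor. It was at 53.6, 57.2 and 36.0 normalized counts in the WT tumors, compared with 42.1, 48.9 and 80.7 in the knockout tumors. Only knockout tumor 3 lay above the WT range, and the 95% interval of the log2 fold change of 0.19 ran from -1.01 to 1.39. *Ccr7* (chromosome 11, 99144196 to 99155077, minus strand) encodes the chemokine receptor that guides mature dendritic cells, as well as naive T cells and B cells, to lymph nodes. It was at 481.4, 468.7 and 277.8 in the WT tumors, compared with 320.1, 579.8 and 759.9 in the knockout tumors. Knockout tumor 1 was below 2 of the 3 WT tumors, and the log2 fold change was 0.39 (SE 0.38, 95% interval -0.49 to 1.27). It ranged from 0.12 without knockout tumor 3 to 0.74 without knockout tumor 1.

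Levels between genes were compared per kilobase of merged exons. *Itgax* was the most abundant member at 406 normalized counts per kilobase over the 6 tumors, followed by *Ccr7* at 243, *Irf8* at 217, *Zbtb46* at 165, *Batf3* at 79.2, *Cd209a* at 65.5, *Clec9a* at 58.5, *Xcr1* at 28.4, *Flt3* at 26.1 and *Siglech* at 15.7. Of neighbours in this order, only *Zbtb46* and *Batf3* were apart in all values, every tumor's *Zbtb46* level per kilobase being above every tumor's *Batf3* level. *Itgax* was above *Ccr7*, and *Clec9a* above *Xcr1*, within each of the 6 tumors, but their ranges over tumors overlapped. The other neighbours changed places in at least 1 tumor. *Xcr1* and *Flt3* were as often in one order as in the other, with *Xcr1* above in 3 of 6 tumors. The order of the group means differed between WT and knockout tumors at several places. *Zbtb46*, at 169 per kilobase, was just above *Irf8* (164) in WT tumors and below it in knockout tumors (161 and 270). *Siglech* (14.5) was above *Flt3* (13.5) and *Xcr1* (11.7) in WT tumors and the lowest member in knockout tumors (16.9, beside 38.7 and 45.1). In WT tumors *Batf3*, at 67.5 per kilobase, was above *Cd209a* (33.9) and *Clec9a* (21.4), while in knockout tumors *Batf3* (90.9), *Cd209a* (97.0) and *Clec9a* (95.6) were at like levels. *Clec9a* and *Siglech* were close in WT tumors (21.4 and 14.5 per kilobase) and far apart in knockout tumors (95.6 and 16.9).

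The members were next read against the leukocytes as a whole. *Ptprc* was at 2325.9, 1833.3 and 1583.2 normalized counts in the WT tumors, compared with 1814.4, 3035.4 and 3172.9 in the knockout tumors, so that the groups overlapped (log2 fold change 0.46). Per 100 counts of *Ptprc*, *Clec9a* had a mean of 3.86 in WT and 12.4 in knockout tumors (3.22-fold), *Xcr1* 2.65 and 7.16 (2.70-fold), *Cd209a* 2.87 and 5.94 (2.07-fold) and *Flt3* 4.37 and 8.73 (2.00-fold). The groups of these 4 ratios did not overlap. The share of all genes that would be separate per count of *Ptprc* was not computed, so the ratios are given as values only. *Irf8* per 100 *Ptprc* was 60.2 ± 5.42 in WT and 70.8 ± 6.29 in knockout tumors, also without overlap, but only 1.18-fold. The other 5 ratios overlapped and lay between 0.713-fold (*Zbtb46*) and 1.04-fold (*Itgax*). The ratio of *Clec9a* to *Zbtb46* was 0.0362, 0.0534 and 0.0573 in the WT tumors, against 0.213, 0.248 and 0.234 in the knockout tumors. The ratio of *Clec9a* to *Siglech* was 0.953, 1.52 and 2.04 in the WT tumors, against 7.16, 4.98 and 4.95 in the knockout tumors. The ratio of *Clec9a* to *Itgax* was 0.0213, 0.0726 and 0.0597 in the WT tumors, against 0.197, 0.108 and 0.129 in the knockout tumors. The groups of these 3 ratios did not overlap, with the smallest gap for the ratio to *Itgax*. *Clec9a*, their numerator, was itself separate between the groups, and no share over all genes was computed for such ratios. They too are given as values only.

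When the log2 values of each tumor were taken relative to the mean of 12 general leukocyte genes, an alternative chosen after the data were seen, the median of all genes moved to -0.56 and that of the 10 members to 0.080. *Clec9a* kept a log2 fold change of 1.62 and was the only member still at an unadjusted p under 0.05, with log2 fold changes of 1.31 for *Xcr1*, 0.95 for *Cd209a* and 0.90 for *Flt3*. On the same scale *Itgax* was at -0.0013, *Batf3* at -0.10, *Ccr7* at -0.14, *Siglech* at -0.34 and *Zbtb46* at -0.63. The share of all genes at an unadjusted p under 0.05 was counted in the main fit only, not in these alternatives. With the mean of the same leukocyte genes as a covariate, the log2 fold change of *Clec9a* was 2.23, with *Cd209a* at 1.36, *Xcr1* at 1.03 and *Flt3* at 0.98. In that covariate fit 2 members, *Clec9a* and *Cd209a*, stayed at an unadjusted p under 0.05. With the mean of 12 white adipocyte genes as a covariate, *Clec9a* alone remained under it, with a log2 fold change of 2.22, while *Flt3* was at 0.98, *Cd209a* at 0.84 and *Xcr1* at 0.59 and *Irf8* turned to -0.15. Over 18 alternatives the log2 fold change of *Clec9a* ranged from 1.62 to 2.32 and reached an unadjusted p under 0.05 in each of them, as did that of *Cd209a* in 16, *Flt3* in 14, *Xcr1* in 13, *Irf8* in 4 and *Itgax* in 1. The adjusted p of *Clec9a* from limma ranged from 0.197 to 0.694 over these alternatives, so it passed the adjusted limit in none.

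**Figure D2:**
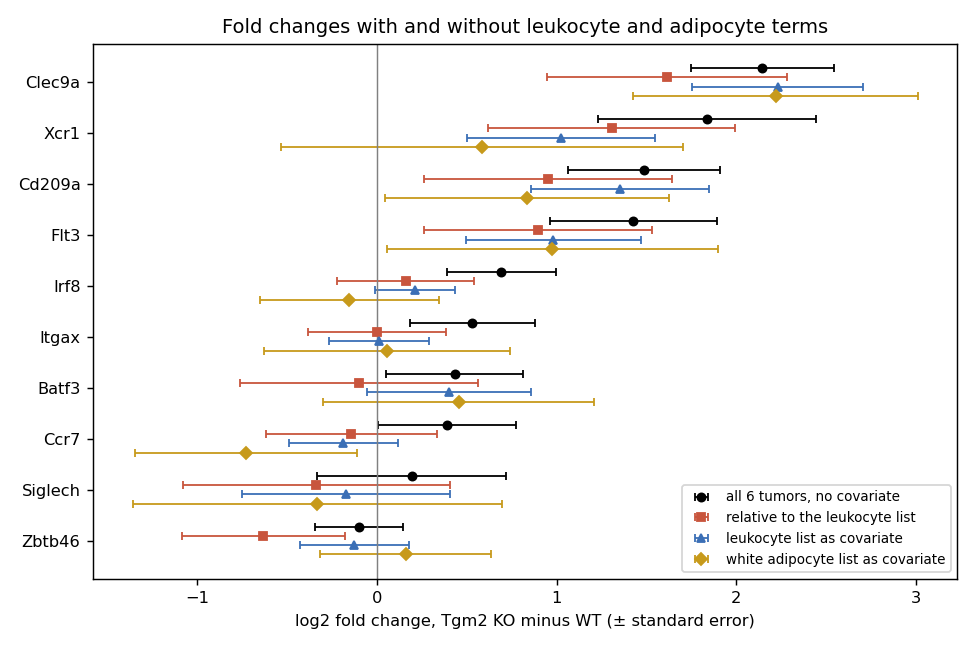
Log2 fold change (horizontal axis, *Tgm2* knockout minus WT, with its standard error) of each of the 10 genes in 4 fits: all tumors with no covariate (black), values relative to the leukocyte list (red), the leukocyte list as a covariate (blue) and the white adipocyte list as a covariate (gold). *Clec9a* stays between 1.62 and 2.23 in all of them, while *Irf8*, *Itgax*, *Batf3*, *Ccr7*, *Siglech* and *Zbtb46* sit near 0 in at least 1.

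Other genes of the same subsets were read from lists of 9 cDC1, 10 cDC2, 16 pDC and 20 mature dendritic cell genes, none of which held a member. Of these 55 genes, 10 were higher in knockout tumors at an unadjusted p under 0.05 (18.2%, beside 3.40% of all genes), 0 were lower, and 0 passed the adjusted limits. The 10 genes with separate groups, knockout higher, also made up 18.2%, beside 5.18% of all genes. Both sets of 10 include *Irf4* and *Ly6c2*, which also stand in the plasma cell and monocyte lists. The part of other cell types in these shares was not tested. Relative to the 12 leukocyte genes, the scale on which the median of all genes was -0.56, the median log2 fold changes of the 4 lists were -0.20 (cDC1), 0.02 (cDC2), -0.09 (pDC) and -0.46 (mature). The cDC1 list held no gene with a log2 fold change as large as those of *Clec9a* and *Xcr1*. None of its 9 genes reached an unadjusted p of 0.05, its median log2 fold change was 0.33, and *Id2*, a transcription regulator needed for cDC1 and used in many cell types, was the only 1 with separate groups (log2 fold change 0.33). *Wdfy4*, which cDC1 need for cross-presentation, had a log2 fold change of 1.17 (SE 0.62, limma adjusted p = 0.889), with 1093.8, 215.4 and 426.0 normalized counts in the WT tumors, against 701.9, 756.3 and 2144.9 in the knockout tumors. WT tumor 1 was higher than 2 of the knockout tumors. *Itgae*, the integrin CD103 of tissue cDC1 and resident T cells, had a log2 fold change of 0.89 and *Ifi205* of 0.99, both with overlapping groups. *Cd24a*, the most abundant gene of the list, ranged from 292.9 normalized counts in WT tumor 1 to 19513 in WT tumor 3, the tumor high in *Epcam*, and is expressed by epithelial cells.

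In the cDC2 list, 4 of 10 genes were higher at an unadjusted p under 0.05, and the groups of these 4 did not overlap. *Irf4*, a transcription factor of cDC2 that plasma cells also need, was at 106.0, 35.6 and 95.6 normalized counts in the WT tumors, compared with 498.7, 310.5 and 575.4 in the knockout tumors, a log2 fold change of 2.63 (SE 0.50, limma adjusted p = 0.264). It also stands in the plasma cell list, which was higher in the same tumors. *Clec10a*, a lectin of cDC2 and macrophages, was at 372.8, 316.3 and 218.9 in the WT tumors, compared with 526.5, 1648.8 and 680.4 in the knockout tumors. Knockout tumor 2 stood well above the others (log2 fold change 1.50, SE 0.44, limma adjusted p = 0.649). *Cd1d1*, which presents lipids to NKT cells, had a log2 fold change of 1.05 and *Cd7* of 1.24. *Klf4*, the most abundant gene of the list, had one of -0.11, and *Clec4a4* was listed at 0 in knockout tumors 2 and 3 and at no more than 9.19 normalized counts in any tumor. The median log2 fold change of the list was 0.55, and it was 0.87 when genes needed 10 normalized counts in 3 tumors and 0.16 with the leukocyte covariate.

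In the pDC list, 4 of 16 genes were higher at an unadjusted p under 0.05 and 3 had separate groups, with a median log2 fold change of 0.44 (0.017 with the leukocyte covariate and -0.19 with the adipocyte covariate). *Ly6c2*, which monocytes also express and which stands in the monocyte list, was at 399.9, 250.4 and 238.1 normalized counts in the WT tumors, compared with 785.4, 2223.0 and 1563.4 in the knockout tumors (log2 fold change 2.28, SE 0.40, limma adjusted p = 0.212). *Ly6d* had a log2 fold change of 1.75 and *Pacsin1* of 1.94, the latter with 11.2 to 65.5 normalized counts in WT tumors. *Cd209d*, a paralog of *Cd209a*, had one of 2.04 with overlapping groups. It was at 11.3, 34.9 and 7.09 in the WT tumors, against 28.2, 190.6 and 43.3 in the knockout tumors. Knockout tumor 2 was also the highest for *Cd209a*, and how reads were divided between these paralogs is uncertain. The defining transcription factors of pDC were not separate: the log2 fold change was 0.81 for *Tcf4* and -0.67 for *Spib*. *Atp1b1*, an ion pump subunit found in most cells, was the most abundant gene of the list (log2 fold change -0.30).

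Of the 20 genes of mature dendritic cells, 2 were higher at an unadjusted p under 0.05, and the median log2 fold change was 0.07. *Ccl22*, a chemokine that attracts regulatory T cells, was at 217.6, 138.6 and 91.2 normalized counts in the WT tumors, compared with 290.9, 393.4 and 643.1 in the knockout tumors (log2 fold change 1.57, SE 0.44, limma adjusted p = 0.649). *Il12b*, the p40 subunit shared by interleukin-12 and interleukin-23, was at 25.5, 25.0 and 24.3 in the WT tumors, compared with 44.5, 63.8 and 96.0 in the knockout tumors (log2 fold change 1.34, limma adjusted p = 0.819). The WT tumors were nearly alike and every knockout tumor was above them, at levels of less than 100 normalized counts. *Pdcd1lg2*, which encodes PD-L2, had a log2 fold change of 1.43, although its groups overlapped, and *Cacnb3*, the most abundant gene of the list, had one of 0.10. The log2 fold changes of the costimulatory genes *Cd40*, *Cd80* and *Cd86* were -0.12, 0.95 and 0.25, and that of *Ccl17*, a chemokine often released with CCL22, was 0.16.

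**Figure D3:**
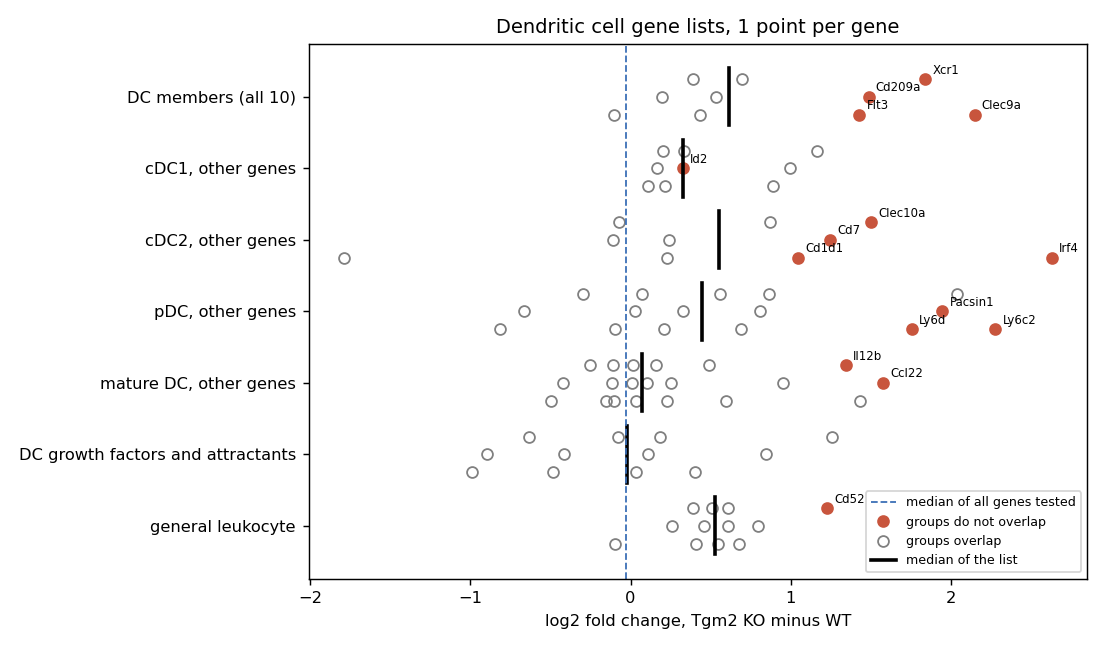
Log2 fold change (horizontal axis, *Tgm2* knockout minus WT) of each gene in 7 lists, with 1 point per gene, filled red where the 3 knockout tumors all lay above the 3 WT tumors; thick bars are list medians and the dashed line is the median of all genes tested (-0.03). The filled points to the right in the dendritic cell lists are single genes such as *Irf4*, *Ly6c2* and *Clec9a*, and most other points overlap between the groups.

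Growth factors and chemokines that act on dendritic cells were read next, together with the growth factor receptor genes *Csf2ra* and *Csf2rb*. Of 12 such genes, 0 reached an unadjusted p of 0.05 in either direction by limma, and the median log2 fold change was -0.02. *Flt3l*, the ligand of FLT3, was at 123.1, 98.5 and 371.6 normalized counts in the WT tumors, compared with 199.1, 82.1 and 72.7 in the knockout tumors. WT tumor 3 was the highest and the groups overlapped (log2 fold change -0.64, SE 0.62). *Xcl1*, the ligand of XCR1 and a product of NK cells and CD8+ T cells, was at 80.7, 72.1 and 17.3 in the WT tumors, compared with 57.3, 130.4 and 193.5 in the knockout tumors. Knockout tumor 3 was the highest for *Xcl1* as it was for *Xcr1*, and knockout tumor 1 lay within the WT range (log2 fold change 1.26, SE 0.73, limma adjusted p = 0.891). *Ccl19*, a ligand of CCR7, had a log2 fold change of 0.84, *Cxcl12*, the most abundant gene of the list, of 0.03, and *Csf2* of -0.99 with no more than 6.59 normalized counts in any tumor.

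Lists of other cell types in the same tumors were read beside these values. The mean log2 value of the list was above the WT range in every knockout tumor for B cells, plasma cells, T cells and white adipocytes, as it was for the 10 members. It overlapped for general leukocytes, macrophages, monocytes, NK cells, lymphoid tissue stroma and tumor epithelium. Of the 4 lists of other dendritic cell genes, it was above the WT range in every knockout tumor for cDC2 only. It overlapped for the cDC1, pDC and mature dendritic cell lists. The part of the other cell types in the members' differences was not tested. The adipocyte fit above cannot measure it, since the adipocyte list was itself separate between the groups. In that fit the SE was 0.79 for *Clec9a*, 0.92 for *Flt3* and 1.12 for *Xcr1*. Without the covariate it was 0.40, 0.47 and 0.61. Plasma cell genes stood out most, with a median log2 fold change of 2.44 over 8 genes and 5 of 8 at an unadjusted p under 0.05, 2 of them past the adjusted limits. *Jchain*, which joins secreted IgA and IgM units and was the most abundant, made up 65.1% of their sum and rose by a log2 fold change of 4.80 (limma adjusted p = 9.89e-04). The summed plasma cell list was 15741, 17690 and 12873 normalized counts in the WT tumors, against 59558, 82167 and 86368 in the knockout tumors.

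The 10 B cell genes had a median log2 fold change of 0.80, which is also the quantity given for the lists and genes that follow, and *Cd79a*, a B cell receptor subunit and the most abundant of them, rose by 3.01 on the log2 scale (limma adjusted p = 0.0264). Their sum was 1048, 631 and 789 normalized counts in the WT tumors, against 1784, 1794 and 2578 in the knockout tumors. The 12 white adipocyte genes had a median of 1.64, with 11 at an unadjusted p under 0.05, and *Lep*, which encodes leptin, rose by 3.74 on the log2 scale (limma adjusted p = 0.0393). Their sum, led by *Lpl*, was 45088, 57599 and 33859 in the WT tumors, against 48848, 170906 and 101371 in the knockout tumors. It was highest in knockout tumor 2, whereas 8 of the 10 members were highest in knockout tumor 3. The 12 T cell genes had a median of 0.80, with *Tcf7* the most abundant (0.10) and *Cd4* at 1.49, and sums of 5409, 3750 and 3538 in the WT tumors, against 5080, 4000 and 8401 in the knockout tumors. The 9 NK cell genes had a median of 1.01, with *Klrk1* the most abundant (1.01) and *Gzma* at 1.30, and their sums were 465.1, 416.3 and 201.4 in the WT tumors, against 396.4, 702.9 and 924.6 in the knockout tumors.

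The myeloid lists were less apart, and the medians of macrophages and monocytes turned negative with either the leukocyte or the adipocyte covariate. That of general leukocytes turned negative with the adipocyte covariate. The leukocyte covariate is the mean of these same genes and holds their median near 0 by construction. The 12 general leukocyte genes had a median log2 fold change of 0.53, led by *Laptm5* (0.54), with *Cd52* at 1.22, and sums of 39196, 28477 and 21478 in the WT tumors, against 27124, 48180 and 52960 in the knockout tumors. The 12 macrophage genes had a median of 0.45, led by the complement gene *C1qa* (0.48), with the phagocytic receptor *Mertk* at 0.79. The macrophage median was 0.11 without either WT tumor 3 or knockout tumor 2 and 0.90 without knockout tumor 1. The sums of the list were 62011, 43393 and 27501 in the WT tumors, against 31899, 88014 and 68507 in the knockout tumors, so that the sum in knockout tumor 1 was below that in 2 of the 3 WT tumors, while its *Clec9a* was above all of them. The 8 monocyte genes had a median of 0.36, led by *Ace* (-0.12), and this median was -0.0027 when WT tumor 3 was left out and 0.65 when WT tumor 1 was. Their sums were 16818, 10313 and 12468 in the WT tumors, against 9353, 17295 and 12757 in the knockout tumors. The 9 genes of lymphoid tissue stroma and high endothelium had a median of -0.31, led by *Ccl21a* (-0.49), with *Glycam1* at 2.20 and no more than 26.2 normalized counts in any tumor. This median turned positive without WT tumor 1 (0.079), WT tumor 3 (0.23) or knockout tumor 2 (0.11). *Clec4g*, in that list, was the only gene of the 10 lists of other cell types listed at 0 in a tumor. The sums of the list were 3852, 2334 and 3378 in the WT tumors, against 3644, 2435 and 2225 in the knockout tumors. The 10 tumor epithelium genes had a median of -0.32, led by *Wt1* (0.11), with *Krt18* at -0.51, and their sums were 71886, 84205 and 83982 in the WT tumors, against 65881, 61467 and 70337 in the knockout tumors. Every knockout sum was thus below every WT sum, although the mean log2 values overlapped. *Krt8* and *Krt19*, 2 of the 10 genes, were separate with the knockout tumors lower, beside 5.33% of all genes.

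**Figure D4:**
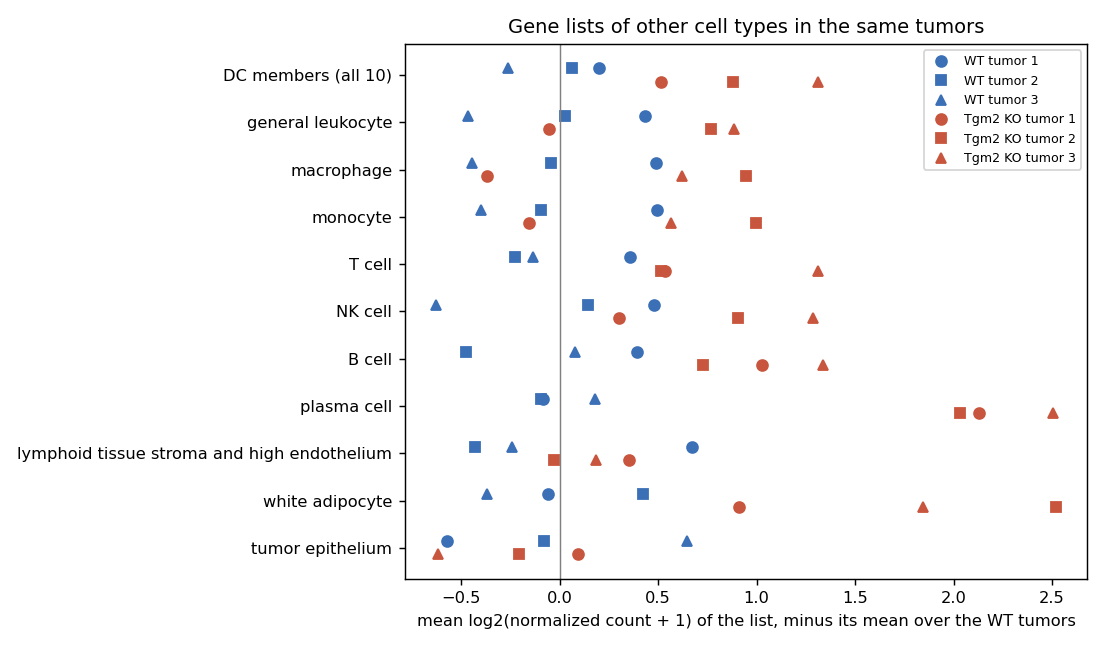
Mean log2(normalized count + 1) of the 10 dendritic cell genes and of 10 lists of other cell types in each tumor, minus the mean of the WT tumors (horizontal axis), with WT tumors in blue, *Tgm2* knockout tumors in red and the marker shape giving the tumor number. The knockout tumors lie to the right of all WT tumors for the dendritic cell genes, T cells, B cells, plasma cells and white adipocytes and overlap with them for the other lists.

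The members were also compared tumor by tumor. Knockout tumor 3 was the highest tumor for 8 of the 10 genes and knockout tumor 2 for the other 2, *Cd209a* and *Batf3*. WT tumor 3 was the lowest for 5, WT tumor 2 for 3, WT tumor 1 for *Clec9a* and knockout tumor 2 for *Zbtb46*. The mean of the members' log2 values, each centred over the 6 tumors, was -0.25, -0.39 and -0.71 in the WT tumors, against 0.07, 0.43 and 0.86 in the knockout tumors. *Irf8* followed this mean most closely, with a root mean square difference of 0.16 log2 units over the tumors. *Clec9a* (0.72) and *Xcr1* (0.62) were the farthest from it, both with a larger spread between tumors than the mean. Of all other genes of the table, *Ctse*, which encodes the protease cathepsin E, was nearest to this mean profile (root mean square difference 0.096), with 1198.5, 938.9 and 745.4 normalized counts in the WT tumors, against 1248.6, 1569.6 and 2347.0 in the knockout tumors. *Dok5* (0.098), with 11.2 to 35.6 normalized counts, and *Tmem154* (0.106), with 89.7 to 306.9, came next. These 3 genes were picked for their likeness over 6 tumors, and their log2 fold changes of 0.82, 1.03 and 0.96 are given as a description.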

How the data were processed

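Bulk RNA from primary tumors of 3 WT and 3 *Tgm2* knockout mice was compared, with groups and replicate numbers taken from the labels. The authors sequenced paired reads, quantified transcripts with kallisto (0.46.2, GRCm38, per the submitters' processing notes), took the mapping of transcripts to genes from biomaRt, dropped genes of low expression and divided by size factors from DESeq2 (estimateSizeFactors). The Ensembl release and the limit for low expression are not given in the sources used here. The deposited values, a signal in units of normalized counts, carry the label TPM, which their sums contradict. The tests were planned for TPM.

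They were kept, with no count model: for genes with several transcripts only 41.4% to 49.0% of values came out as whole reads (tolerance 0.1 read), against 93.4% to 99.1% for genes with 1 transcript. In R 4.3.3, limma 3.58.1 was fitted to log2(value + 1), which understates changes of low genes, over the 19667 genes that reached 1 normalized count in 3 or more tumors, with 1 contrast, no covariate, a trend of variance on mean and two-sided p-values adjusted by Benjamini-Hochberg. Tables were made in Python 3.11.15. Gene positions were looked up by symbol in GENCODE M21 (GRCm38). The model was tested on simulated data. The members and gene lists were chosen with earlier results of these data known. Named were the members, *Tgm2*, *Ptprc*, the most abundant gene and the 3 smallest p-values of each dendritic cell or growth factor list, the most abundant gene and the smallest p-value of each other list, and the 3 nearest profiles. *Epcam*, *Cdh1*, *Rprd1b*, *Clec1b*, *Id2*, *Cd7*, *Clec4a4*, *Tcf4*, *Spib*, *Cd209d*, *Cd40*, *Cd80*, *Cd86*, *Ccl17*, *Flt3l*, *Csf2ra*, *Csf2rb*, *Krt8*, *Krt19* and *Clec4g* were named after their values were seen. Alternatives changed the pseudocount (0.1 and 5), the filter, the scaling, the replicate block, the variance trend, tumor weights and covariates, and left out each tumor in turn.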

Additional observations from a re-analysis of the deposited data

How the results depend on the processing

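Of the 10 dendritic cell genes, 0 passed the adjusted limits of limma under any alternative run. The number at an unadjusted p under 0.05, 4, became 2 with the leukocyte covariate. It became 1 with the white adipocyte covariate and 1 relative to the leukocyte list. When 1 tumor was left out it ranged from 2 (without knockout tumor 3) to 6 (without WT tumor 1). The share of all genes under that p was not counted in the alternatives. The median log2 fold change of 0.61 became 0.31 with either covariate and 0.080 relative to the leukocyte list, and ranged from 0.47 to 0.88 without 1 tumor. The 20 genes of the whole table past the limits became 4 without the variance trend, 9 with the leukocyte covariate and 0 with the adipocyte covariate, and ranged from 2 (without WT tumor 2) to 15 without 1 tumor. *Clec9a*, *Xcr1*, *Cd209a* and *Flt3* kept their direction in all 18 alternatives. The direction turned for *Siglech* (-0.17 with the leukocyte covariate, -0.33 with the adipocyte covariate, -0.34 relative to the leukocyte list, -0.0093 without WT tumor 3 and -0.079 without knockout tumor 3, range without 1 tumor -0.079 to 0.38), *Ccr7* (-0.19, -0.73 and -0.14 under the first 3 of these), *Zbtb46* (0.16 with the adipocyte covariate and 0.12 without knockout tumor 2, range without 1 tumor -0.28 to 0.12), *Irf8* (-0.15 with the adipocyte covariate) and, relative to the leukocyte list, *Itgax* (-0.0013) and *Batf3* (-0.10). Among the list medians without 1 tumor, those of growth factors (-0.24 to 0.13), mature dendritic cells (-0.044 to 0.30), monocytes (-0.0027 to 0.65) and lymphoid stroma (-0.30 to 0.23) changed sign. The others kept theirs when 1 tumor was left out, at 0.25 to 0.42 for cDC1, 0.37 to 0.76 for cDC2, 0.27 to 0.60 for pDC, 0.28 to 0.81 for general leukocytes, 0.11 to 0.90 for macrophages, 0.63 to 1.39 for NK cells, 0.66 to 1.04 for B cells, 0.50 to 0.99 for T cells, 2.11 to 2.72 for plasma cells, 1.11 to 2.31 for white adipocytes and -0.50 to -0.15 for tumor epithelium. With the leukocyte and then the adipocyte covariate, the medians turned or neared 0 for macrophages (-0.31 and -1.07), monocytes (-0.086 and -0.63), general leukocytes (-0.032 and -0.38), pDC (0.017 and -0.19), NK cells (0.29 and 0.0091), tumor epithelium (-0.15 and 0.19), lymphoid stroma (0.083 and 0.16) and white adipocytes (1.11 and 0.055), and were 0.25 and 0.11 for cDC1, 0.16 and 0.37 for cDC2, 0.090 and 0.082 for mature dendritic cells, -0.12 and -0.25 for growth factors, 0.62 and 1.35 for B cells, 0.53 and 0.67 for T cells and 2.53 and 3.05 for plasma cells. Each covariate is the mean of the list it is named for. The general leukocyte median with the leukocyte covariate, and the white adipocyte median with the adipocyte covariate, are therefore held near 0 by construction. The causes of the other moves were not tested.

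Same-numbered tumors of the groups did not deviate together (correlations of -0.20, 0.28 and -0.31 for numbers 1 to 3), so the numbers were not taken as pairs. With the replicate block 5 genes of the table passed the limits, and 4 members stayed at an unadjusted p under 0.05.

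Precision is limited by having 3 tumors in each group. *Siglech* held fewer than 100 normalized counts in each tumor, as did *Clec9a*, *Xcr1* and *Cd209a* in each WT tumor, so these values rest on few reads.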
